A study of Mus musculus with 8 samples.

Results

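The genes described here write, copy, erase or regulate methylation of cytosine in DNA. They were chosen by symbol, with earlier results of these data known but by no threshold on a value, as the rows for Dnmt1, Dnmt3a, Dnmt3b, Dnmt3l, Tet1, Tet2, Tet3, Uhrf1, Prdm14 and Tdg. All 10 had values and passed the filter on low values, out of 17488 genes with values, of which 13959 were tested. RNA came from mouse E14 embryonic stem cells (strain 129/Ola) in 8 libraries, 2 in each of 4 groups. The GSK3β line lacks its own GSK3beta gene and carries transgenic mutant GSK3beta-L132G, and it was given 5 µM 3MB-PP1 for 2 h or left untreated. The GSK3α line lacks its own GSK3alpha gene and carries transgenic mutant GSK3alpha-L195G, with the same pair of groups. All cells had been without serum in N2B27 medium for 6 h. The amino acid changes make each kinase sensitive to the bulky inhibitor 3MB-PP1, so the comparison asks which genes respond when 1 paralog of glycogen synthase kinase 3 is blocked.

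Each paralog stands on 1 line, the other paralog remained in each line without such a change, the labels name no vehicle, and no line with unchanged kinases was included. Line, clone and paralog therefore cannot be told apart, nor can an action of 3MB-PP1 on other kinases. Nothing in the labels says that the 2 libraries of a group came from separate cultures. A p-value here thus reflects how far such libraries differed, which may be technical. That spread was estimated from the gene itself and from other genes of like level. Gsk3b had 258 and 249 in treated and 235 and 256 in untreated libraries of the GSK3β line, against 52.7 to 58.2 in the GSK3α line. Gsk3a had 77.6 and 79.9 in treated and 77.9 and 76.2 in untreated libraries of the GSK3β line, against 141 to 160.0 in the GSK3α line. The 10 embryonic stem cell markers had between 128 and 1693 in every library, and their sum lay between 6549 and 6737. All 5 primitive endoderm markers and all 5 trophoblast markers with values stayed under 10 in every library.

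DNA methylation in mammals is laid down at new sites by the de novo enzymes DNMT3A and DNMT3B with the help of DNMT3L, which resembles them but has no catalytic activity. It is copied after each round of replication by DNMT1, which UHRF1 brings to newly made DNA. TET enzymes oxidise the methyl group, and TDG cuts out the oxidised bases so that repair can restore an unmethylated cytosine. In mouse embryonic stem cells PRDM14 is known as a repressor of the de novo methyltransferase genes, and the balance of these activities differs between the naive and the primed state.

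Promoter sequence is shown for the genes with a listed start whose RNA moved with 3MB-PP1 in the GSK3β line. The RefSeq table of promoters (GRCm38.p6) matched 9 of the 10 genes with 16 transcription starts, and Prdm14 was not among them. Windows are the 250 bases before the start, read on the gene's own strand. Capitals mark the GC box GGGCGG, the E-box CACGTG and the STAT motif TTCNNNGAA, on either strand. The internal start of Dnmt3a (chr12:3891494-3891743, plus strand), the only listed start of Dnmt3b (chr2:153649199-153649448, plus strand), the first and the second of 3 listed starts of Dnmt3l (chr10:78042037-78042286 and chr10:78049592-78049841, plus strand), the only listed start of Tet1 (chr10:62887325-62887574, minus strand) and the only listed start of Tet2 (chr3:133544391-133544640, minus strand) have these sequences, 5′ to 3′.
Dnmt3a, internal start: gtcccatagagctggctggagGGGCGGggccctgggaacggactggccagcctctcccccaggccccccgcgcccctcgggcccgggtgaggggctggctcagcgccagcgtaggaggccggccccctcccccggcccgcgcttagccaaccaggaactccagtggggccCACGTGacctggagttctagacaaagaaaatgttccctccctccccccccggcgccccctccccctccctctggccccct
Dnmt3b: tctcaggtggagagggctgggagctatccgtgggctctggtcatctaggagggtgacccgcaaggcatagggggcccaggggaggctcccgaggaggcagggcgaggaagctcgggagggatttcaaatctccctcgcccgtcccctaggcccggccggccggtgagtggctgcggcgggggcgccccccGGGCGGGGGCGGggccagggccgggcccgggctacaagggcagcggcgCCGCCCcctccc
Dnmt3l, first start: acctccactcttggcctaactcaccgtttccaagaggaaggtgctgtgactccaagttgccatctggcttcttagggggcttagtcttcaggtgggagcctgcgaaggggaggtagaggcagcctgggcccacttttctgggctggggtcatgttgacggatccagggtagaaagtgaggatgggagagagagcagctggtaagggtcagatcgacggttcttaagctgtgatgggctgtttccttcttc
Dnmt3l, second start: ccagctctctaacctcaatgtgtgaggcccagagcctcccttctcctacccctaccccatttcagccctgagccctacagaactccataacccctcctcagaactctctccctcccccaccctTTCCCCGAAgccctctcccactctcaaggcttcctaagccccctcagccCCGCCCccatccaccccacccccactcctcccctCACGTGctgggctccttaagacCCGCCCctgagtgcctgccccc
Tet1: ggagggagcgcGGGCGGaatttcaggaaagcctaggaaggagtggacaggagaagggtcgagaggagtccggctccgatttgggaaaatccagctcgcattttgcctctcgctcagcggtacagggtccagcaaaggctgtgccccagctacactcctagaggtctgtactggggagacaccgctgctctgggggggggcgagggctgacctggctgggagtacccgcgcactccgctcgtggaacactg
Tet2: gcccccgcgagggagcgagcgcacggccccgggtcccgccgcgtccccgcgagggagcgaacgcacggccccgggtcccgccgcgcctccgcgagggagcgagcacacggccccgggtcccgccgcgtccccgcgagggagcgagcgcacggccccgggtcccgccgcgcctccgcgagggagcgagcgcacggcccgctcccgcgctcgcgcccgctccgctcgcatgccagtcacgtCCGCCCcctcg
The Tet2 window holds 51 CpG pairs, the site of methylation, against a median of 6 and an upper quartile of 16 over 32851 promoter windows. Dnmt3b has 21, Tet1 15, the internal Dnmt3a window 15, and the first and second Dnmt3l windows 5 and 4. The internal Dnmt3a start is printed because the short form of the enzyme in mouse embryonic stem cells is made from an internal start. Which of the listed starts of Dnmt3l was in use cannot be read from values per gene. The other Dnmt3a windows, not printed, have 38 and 40 CpG pairs with 5 and 4 GC boxes, and the last Dnmt3l window has 3 CpG pairs and no match. GC boxes lay in 11 of the 16 windows of these genes, against 32.7% of all windows. The windows are not all separate, since the first 2 of Dnmt3a overlap and share a GC box. Counted by gene, 8 of 9 had a GC box, and windows of like CpG content were not compared. The E-box was in 3 of 16 (6.02% of all windows) and the STAT motif in 2 of 16 (7.02%). Neither the TCF/LEF motif CTTTGAT or CTTTGTT (8.06% of all windows) nor the OCT motif ATGCAAAT (1.6%) was in any of the 16. These are matches of letters within short windows and say nothing about where a factor binds.

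Values are in the units of the deposited table, estimated gene counts put on a common scale by its authors, and changes are given on the scale log2(value + 1). A gene passed when its adjusted p was under 0.05 in limma, adjusted by the Benjamini-Hochberg method across the 13959 genes tested. Errors of log2 values are the SE of that fit. In bulk samples such as these, fewer cells of a type and less RNA per cell cannot be told apart.

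In the GSK3β line 3MB-PP1 moved 6 of the 10 genes within 2 h, 2 upward and 4 downward, where 14.9% of all tested genes passed (7.49% higher, 7.44% lower). The 3 genes of the de novo machinery fell, and Prdm14 rose. A link between these changes was not tested. Among the TET genes, Tet1 fell and Tet2 rose. The median log2 change of the 10 was -0.05, against -0.00571 over all tested genes. Apart from Prdm14 and Tet3, the members had mean levels at or above those of 85.2% of tested genes. Their SE of 0.029 to 0.040 lay below the median of 0.0634 over all tested genes, so smaller changes could pass.

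Dnmt3a (chromosome 12, 3806007 to 3914443, plus strand, mm10) encodes a de novo methyltransferase. Its values in the GSK3β line were 199 and 205 with 3MB-PP1, against 269 and 271 untreated. Both treated libraries lay below both untreated ones, a log2 change of -0.42 ± 0.03 (adjusted p = 1.14e-08), or a fall by 25.2%. In mouse embryonic stem cells much of this enzyme is a short form made from an internal start, and values per gene do not separate the forms. Dnmt3b (chromosome 2, 153649450 to 153687730, plus strand), the other de novo enzyme, had 219 and 223 with 3MB-PP1, against 254 and 257 untreated. Its groups were also apart, and its log2 change was smaller than that of Dnmt3a, a change of -0.21 ± 0.03 (adjusted p = 5.39e-05). Dnmt3l (chromosome 10, 78041947 to 78063622, plus strand), the inactive partner, had 235.9 and 236.1 with 3MB-PP1, against 323 and 307 untreated. The change was -0.41 ± 0.03 on the log2 scale (adjusted p = 3.03e-08), again with no overlap between the groups.

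Prdm14 (chromosome 1, 13113457 to 13127163, minus strand), the PR-domain repressor of de novo methylation, went the other way. It had 57.6 and 51.3 with 3MB-PP1, against 36.8 and 38.4 untreated. Its log2 change of 0.52 ± 0.05 (adjusted p = 8.77e-07), a rise of 43.6%, was the largest in size among the 10 genes in this comparison. The treated libraries of Prdm14 differed from each other more than those of the other 9 genes did relative to their level, and the smaller of them still stood above both untreated values.

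**Figure D1:**
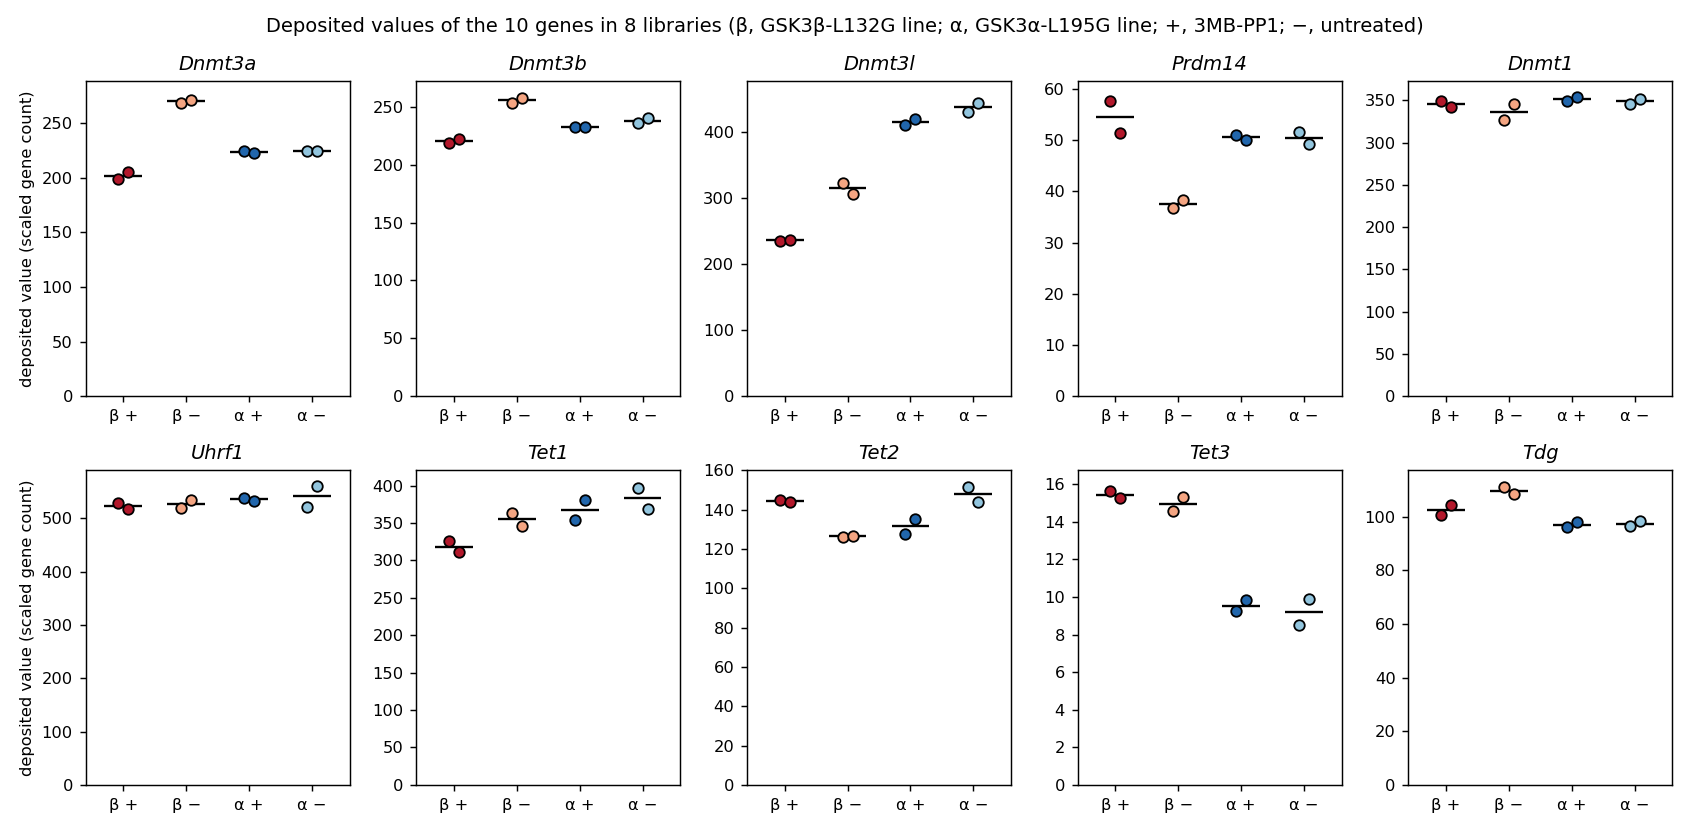
Deposited values (scaled gene counts, axes from 0) of the 10 genes. Each point is 1 library and each bar the mean of 2; groups run from the GSK3β line with 3MB-PP1 (β +) and untreated (β −) to the GSK3α line with 3MB-PP1 (α +) and untreated (α −). In the GSK3β line Dnmt3a had 199 and 205 with 3MB-PP1, against 269 and 271 untreated, whereas Prdm14 had 57.6 and 51.3, against 36.8 and 38.4.

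The maintenance genes did not pass in the GSK3β line. Dnmt1 (chromosome 9, 20907209 to 20959888, minus strand), the maintenance methyltransferase, had 349 and 343 with 3MB-PP1, against 326 and 345 untreated. The groups overlapped, and the log2 change of 0.04 ± 0.03 had a 95% interval from -0.02 to 0.11 (adjusted p = 0.390). Uhrf1 (chromosome 17, 56303321 to 56323486, plus strand), which binds hemimethylated DNA and recruits DNMT1, had 528 and 517 with 3MB-PP1, against 519 and 534 untreated. The log2 change was -0.01 ± 0.03, with a 95% interval from -0.08 to 0.06. A change of the size seen for Dnmt3b lies outside both intervals.

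The TET genes moved in different directions in the GSK3β line. Tet1 (chromosome 10, 62804570 to 62908996, minus strand) had 326 and 311 with 3MB-PP1, against 363 and 346 untreated, a log2 change of -0.16 ± 0.04 (adjusted p = 0.0114). That call ended without untreated replicate 1 (-0.12, adjusted p = 0.109) and without 3MB-PP1 replicate 2 (-0.12, adjusted p = 0.132) of this line. Tet2 (chromosome 3, 133463679 to 133545139, minus strand) had 145 and 144 with 3MB-PP1, against 126.4 and 126.4 untreated. The groups of Tet2 did not overlap, with a log2 change of 0.19 ± 0.04 (adjusted p = 0.00101). Tet3 (chromosome 6, 83362373 to 83459084, minus strand), best known for its role in the mouse zygote and in neurons, had 15.6 and 15.3 with 3MB-PP1, against 14.6 and 15.3 untreated. These overlap, and the log2 change of 0.04 ± 0.08 did not pass (adjusted p = 0.781). Tet3 was the gene with the fewest reads, estimated at 191 to 531 per library, and its 95% interval was correspondingly wide, from -0.13 to 0.21.

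Tdg (chromosome 10, 82629828 to 82650799, plus strand), the glycosylase that removes oxidised methylcytosine, had 101 and 104 with 3MB-PP1 in the GSK3β line, against 111 and 108 untreated. The groups did not overlap, but the log2 change of -0.10 ± 0.04 did not pass (adjusted p = 0.0721); scaled to equal library totals it was -0.11 and passed (adjusted p = 0.0428). A processed copy, Tdg-ps, was listed with values of 15.4 to 18.4, or 15.2 to 17.8% of those of Tdg, and reads could have been split between them. Tdg also shares 367 exonic bases with Glt8d2 on the opposite strand, a gene listed without values. Both leave the level of Tdg uncertain.

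In the GSK3α line 3MB-PP1 moved 1 of the 10 genes, downward, where 0.881% of all tested genes passed (0.265% higher, 0.616% lower). That gene was Tet2, which had 128 and 135 with 3MB-PP1, against 151 and 144 untreated, a log2 change of -0.17 ± 0.04 (adjusted p = 0.0311). Within this line the call was lost without untreated replicate 1 (adjusted p = 0.243) and without 3MB-PP1 replicate 1 (0.465) or 2 (0.0735), and it was lost without 3MB-PP1 replicate 1 or 2 of the GSK3β line (0.0512 for each), which shares the estimate of the spread. Its log2 change ran from -0.21 to -0.12 when each of the 8 libraries was left out in turn.

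None of the de novo genes passed in the GSK3α line. Dnmt3a had 224 and 222 with 3MB-PP1, against 225 and 224 untreated, a log2 change of -0.01 with a 95% interval from -0.07 to 0.05. Dnmt3b had 232.4 and 232.3, against 236 and 240.3 untreated (log2 -0.04, interval -0.10 to 0.03). Dnmt3l had 410.2 and 420.1, against 431 and 444 untreated, a log2 change of -0.08 with an interval from -0.14 to -0.01. That gene passed at an unadjusted p of 0.0274 and not after adjustment (0.338). Prdm14 had 51.1 and 49.99 with 3MB-PP1, against 51.6 and 49.3 untreated, and its interval ran from -0.10 to 0.11.

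The other 5 genes did not pass in the GSK3α line. Dnmt1 had 349 and 354 with 3MB-PP1, against 346 and 352 untreated, and Uhrf1 had 538 and 533, against 522 and 560.4 untreated. Both overlapped between the groups. Tet1 had 354 and 380.1, against 397 and 369 untreated, Tet3 had 9.23 and 9.82, against 8.50 and 9.91, and Tdg had 96.1 and 97.9, against 96.4 and 98.4. Adjusted p-values of these 5 lay between 0.585 and 0.971, which does not show that they did not respond.

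The responses of the lines were compared directly, as the log2 change in the GSK3β line minus that in the GSK3α line. In this test 5 of the 10 genes passed, 2 above 0 and 3 below, where 6.53% of all tested genes passed (3.62% above 0, 2.9% below). Dnmt3a differed by -0.41 ± 0.04 (adjusted p = 4.69e-06) and Dnmt3l by -0.34 ± 0.04 (adjusted p = 8.76e-05). Prdm14 differed by 0.52 ± 0.07 (adjusted p = 0.000169), since its change in the GSK3α line was 0.00 ± 0.05. For Tet2 the difference was 0.36 ± 0.05 (adjusted p = 0.000194), with a rise in the GSK3β line and a fall in the GSK3α line. Dnmt3b differed by -0.17 ± 0.04 (adjusted p = 0.0150). That call ended without 3MB-PP1 replicate 1 or 2 of the GSK3α line (adjusted p = 0.0621 and 0.0598) and without 3MB-PP1 replicate 1 of the GSK3β line (0.1001). Tet1 passed in the GSK3β line and not in the GSK3α line, yet the difference itself of -0.09 ± 0.06 did not pass (adjusted p = 0.364).

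**Figure D2:**
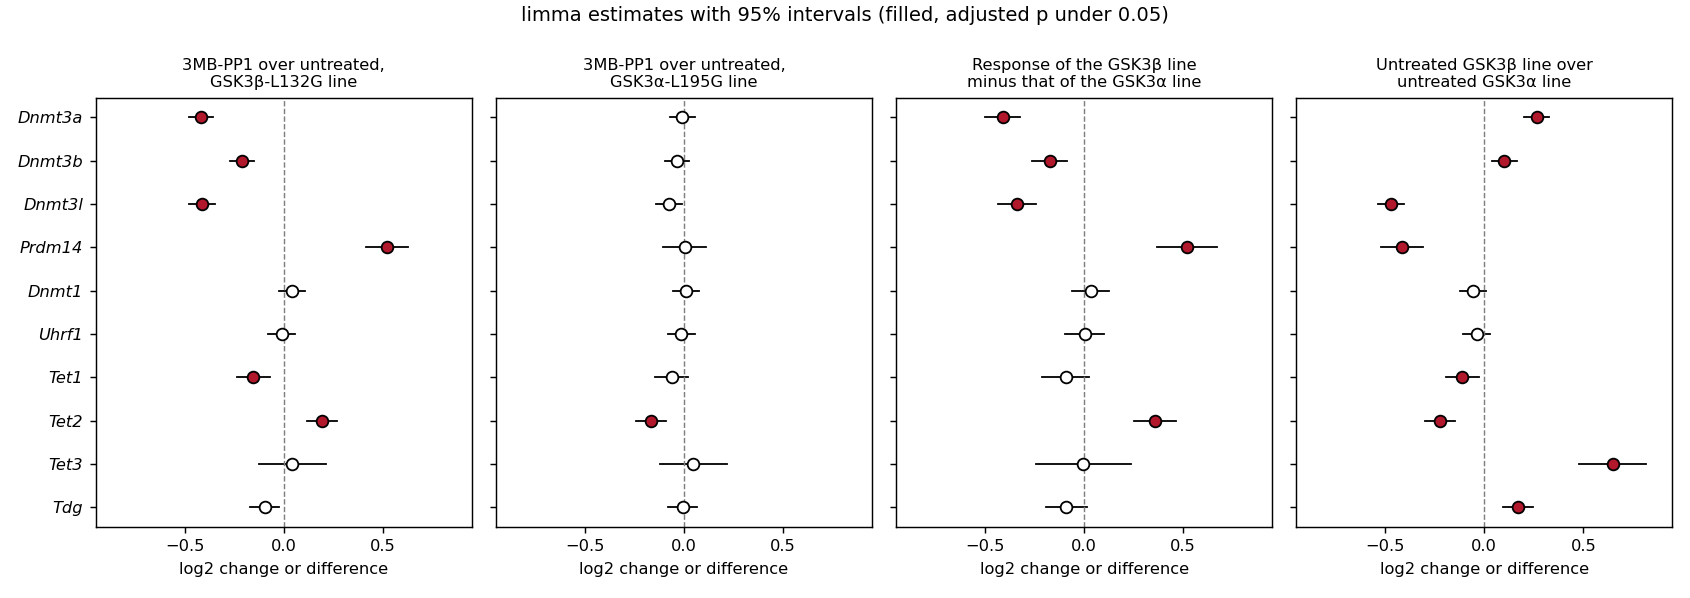
Log2 estimates from limma for the 10 genes, with 95% intervals as lines. The panels give the response to 3MB-PP1 in the GSK3β line and in the GSK3α line, the difference of the responses, and the untreated GSK3β line over the untreated GSK3α line. Filled points passed at an adjusted p under 0.05. Prdm14 stands at 0.52 and Dnmt3a at -0.42 in the GSK3β line, against 0.00 and -0.01 in the GSK3α line.

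The untreated lines differed in 8 of the 10 genes, 4 higher and 4 lower in the GSK3β line, where 48.2% of all tested genes passed (22.3% higher, 25.9% lower). Each of these is a single line. Tet3 had the largest difference, with 14.6 and 15.3 in the GSK3β line, against 8.50 and 9.91 in the GSK3α line (log2 0.65 ± 0.08, adjusted p = 2.74e-06). Dnmt3a was higher in the GSK3β line by 0.26 ± 0.03, Tdg by 0.17 ± 0.04 and Dnmt3b by 0.10 ± 0.03. Lower in the GSK3β line were Dnmt3l (-0.47 ± 0.03, adjusted p = 6.01e-10), Prdm14 (-0.42 ± 0.05), Tet2 (-0.22 ± 0.04) and Tet1 (-0.11 ± 0.04, adjusted p = 0.0282). The Tet1 call ended with equal totals (-0.06, adjusted p = 0.227), with median-of-ratios scaling (-0.09, 0.0637), without untreated replicate 1 of the GSK3α line (-0.06, 0.304) and without untreated replicate 2 of the GSK3β line (-0.08, 0.182). Leaving out the first untreated library of the GSK3α line ended the call for Dnmt3b (0.09, adjusted p = 0.0542). Dnmt1 (log2 -0.06) and Uhrf1 (-0.04) did not pass, with adjusted p = 0.152 and 0.348. Dnmt1 passed without untreated replicate 2 of the GSK3β line (-0.10, adjusted p = 0.0258), and Uhrf1 without untreated replicate 1 of the GSK3α line (-0.09, 0.0437).

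The untreated libraries of the GSK3β line enter its response, the difference of the responses and the comparison of the lines, so these are not independent. Set side by side over the 4 groups, the members fell into several patterns. Dnmt3a and Dnmt3b were highest in the untreated GSK3β line and lowest in the treated GSK3β line, with both GSK3α groups between them. Prdm14 was lowest in the untreated GSK3β line, and its treated GSK3β libraries, at 57.6 and 51.3, lay above 51.1 and 49.99 in the treated GSK3α line and overlapped 51.6 and 49.3 in the untreated GSK3α line. Dnmt3l was highest in the GSK3α line whatever the treatment, then came the untreated and last the treated GSK3β line, with no overlap between the 4 groups. Tet3 and Tdg were higher in both groups of the GSK3β line than in both groups of the GSK3α line.

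Dnmt3l shares a stretch of chromosome with a gene on the other strand, and that gene varied with it. Aire (chromosome 10, 78030022 to 78043610, minus strand) encodes the autoimmune regulator, best known from thymic epithelium, and the first Dnmt3l window printed above lies inside it. The annotated genes overlap by 1664 bases, of which 67 are exonic in both, or 2.24% of the merged exons of Dnmt3l. Aire had 6.48 and 7.07 with 3MB-PP1 in the GSK3β line, against 14.5 and 11.4 untreated, and 25.2 and 23.4 with 3MB-PP1 in the GSK3α line, against 28.02 and 29.6 untreated. Its fall in the GSK3β line was -0.84 ± 0.09 on the log2 scale (adjusted p = 1.75e-06), and the change of -0.24 ± 0.09 in the GSK3α line did not pass (adjusted p = 0.263). The strand setting of the counting is not given in the sources used here, so reads of the shared stretch cannot be assigned to a strand. Aire stood at 2.75 to 6.66% of the value of Dnmt3l, and its mean differed by -6.22 units between treated and untreated libraries of the GSK3β line, against -79.05 units for Dnmt3l. Dnmt3a also shares 133 exonic bases with an antisense gene, Dnmt3aos, and Tet2 shares 43 with Gm42567, both listed without values.

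**Figure D3:**
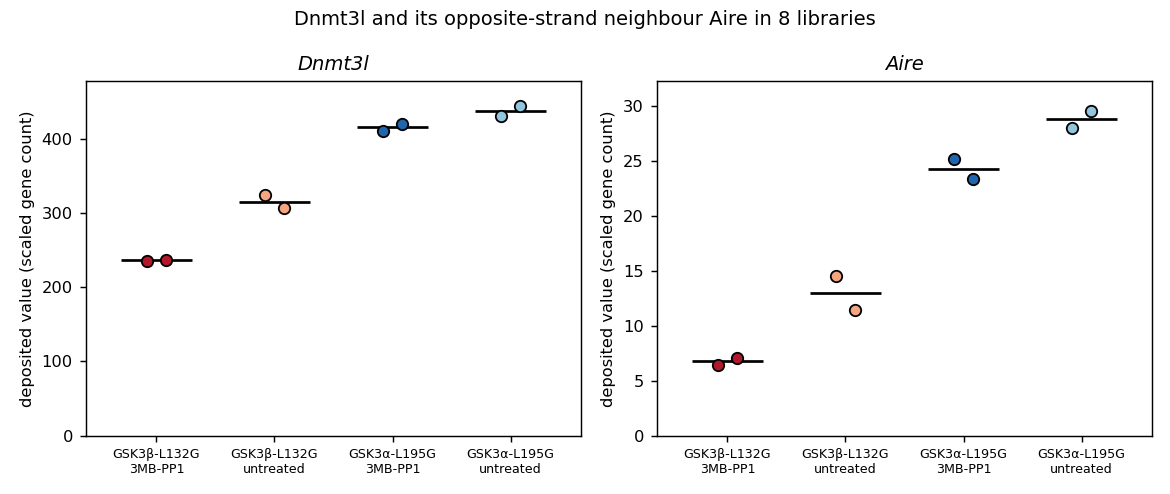
Deposited values (scaled gene counts, axes from 0) of Dnmt3l and of its opposite-strand neighbour Aire. Each point is 1 library and each bar the mean of 2, with treated groups left of untreated ones and the GSK3β line left of the GSK3α line. Both genes were lowest in the GSK3β line with 3MB-PP1, at 235.9 and 236.1 for Dnmt3l and 6.48 and 7.07 for Aire.

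The tested genes whose log2 values over the 8 libraries were most like those of each responding member are given by Pearson's r, as a description over 4 groups of 2 libraries. Aire was the second closest to Dnmt3l (r = 0.996), between Cdc123 (0.998) and Atf7ip, a partner of the histone methyltransferase SETDB1 (0.995). Closest to Dnmt3a were the transcription factor gene Cebpd (0.989), the spindle checkpoint gene Bub1b (0.987) and Oip5 (0.985), which helps to load the centromeric histone. Dnmt3b was followed by Ubr7 (0.992), Klhl24 (0.984) and Basp1 (0.982). Prdm14 had Gm10416 (0.987), AU015836 (0.984) and the cytoskeletal linker gene Plec (0.983) as neighbours. Tet1 had 1810013L24Rik (0.972), Zfp72 (0.969) and Mllt11 (0.968), and Tet2 had the forkhead gene Foxn2 (0.985), Trmt6 (0.968) and the RNA-binding protein gene Elavl2 (0.967).

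Levels can be set against each other only per length. Per kb of merged exons (GENCODE M21), the mean value over the 8 libraries was highest for Uhrf1 (125 per kb) and Dnmt3l (117), followed by Dnmt1 (46.9) and Dnmt3b (46.4). Tet1 had 23.0 per kb, Tdg 18.9, Prdm14 18.8, Dnmt3a 13.8, Tet2 8.16 and Tet3 0.735. The merged length joins all annotated forms, 16.6 kb for Dnmt3a against 5.11 kb for Dnmt3b, so a gene with long unused exons is placed too low in this order.

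Other genes that act with these 10 were described in 8 lists with 73 members, of which 71 were tested. In the GSK3β line 8 were higher, 12 were lower and 51 did not pass, with a median log2 change of -0.04, where 7.49% of all tested genes were higher and 7.44% lower. In the GSK3α line none was higher, 2 were lower and 69 did not pass, with a median of -0.00902, where 0.881% of all tested genes passed. The genes that supply S-adenosylmethionine, the methyl donor, had 4 of 11 higher and 2 lower in the GSK3β line. Tdh, the threonine dehydrogenase on which mouse embryonic stem cells depend, had 398 and 383 with 3MB-PP1, against 299 and 302 untreated (log2 0.38, adjusted p = 1.06e-07). Mat2a and Mat2b, the catalytic and regulatory subunits of the enzyme that makes S-adenosylmethionine, fell by 0.13 and 0.26. Mat2a also fell in the GSK3α line, by 0.12 (adjusted p = 0.0481), with 597 and 597 with 3MB-PP1, against 647 and 651 untreated.

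Partners of maintenance methylation had 2 of 6 lower in the GSK3β line, where 7.44% of all tested genes were lower. For the lists that follow, the share of all tested genes that passed was 14.9% in this line and 0.881% in the GSK3α line. Hells, a chromatin remodeller needed for methylation, had 443 and 445 with 3MB-PP1, against 512 and 508 untreated (log2 -0.20, adjusted p = 5.31e-05), and the replication clamp gene Pcna fell by 0.12. Among 10 genes that protect imprints or CpG islands or act on H3K9, Setdb1, an H3K9 methyltransferase, rose by 0.20, while the CpG island binding genes Kdm2b and Kdm2a fell by 0.22 and 0.17. Kdm2b fell in the GSK3α line as well (log2 -0.19, adjusted p = 0.00473), with 188 and 184 with 3MB-PP1, against 214 and 211 untreated. Among the 8 readers of methylated CpG, Zbtb33 fell by 0.19. None of the 6 TET cofactors passed in either line. Of 12 base excision repair genes Parp1 rose by 0.09 and Apex1, the endonuclease that acts after TDG, fell by 0.10. Of the 6 PRDM14 partners and PRC2 genes Suz12 rose by 0.10 and Ezh2 fell by 0.13.

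Germline genes that promoter methylation is known to silence in mouse embryonic cells had 1 of 12 higher and 3 lower in the GSK3β line, and none of 12 passed in the GSK3α line. Over all tested genes 7.49% were higher and 7.44% lower in the GSK3β line, and 0.881% passed in the GSK3α line. Sycp3, of the meiotic chromosome axis, had 45.9 and 48.8 with 3MB-PP1 in the GSK3β line, against 63.2 and 59.0 untreated (log2 -0.36, adjusted p = 1.45e-05). Hormad1 fell by 0.26 and Sohlh2 by 0.17, and Tuba3a rose by 0.20. Over the list the median log2 change was -0.14.

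**Figure D4:**
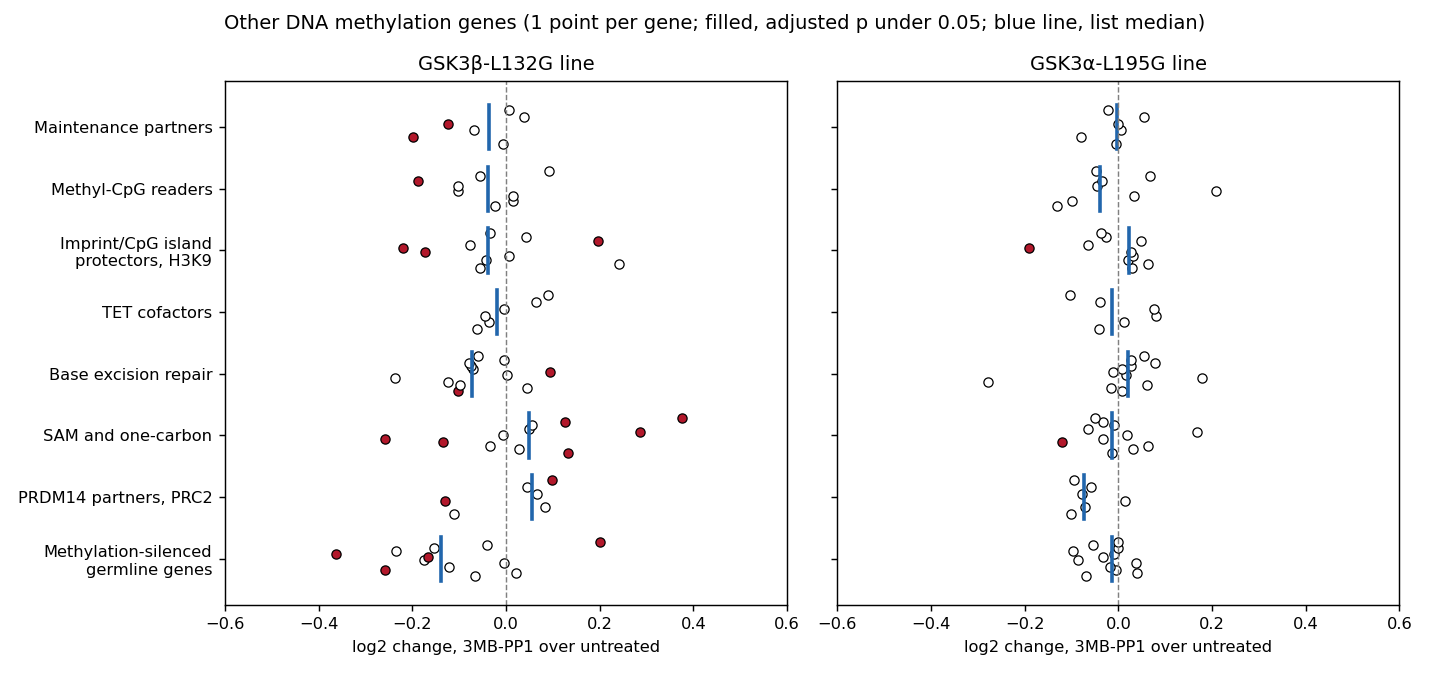
Log2 changes with 3MB-PP1 over untreated for the 71 tested genes of the 8 lists, in the GSK3β line on the left and the GSK3α line on the right. Each point is 1 gene, filled where the adjusted p was under 0.05, and the blue line is the median of a list. In the GSK3β line 8 points are filled to the right of 0 and 12 to the left, against 0 and 2 in the GSK3α line.

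Of the 10 embryonic stem cell markers, 3 rose and 3 fell in the GSK3β line, where 14.9% of all tested genes passed. The naive pluripotency factor gene Klf4 had 197 and 189 with 3MB-PP1, against 127.8 and 127.9 untreated, and Esrrb and Nanog also rose. Fgf4, a growth factor gene, had 179 and 185, against 267 and 256 untreated, and Tdgf1 and Utf1 also fell. Pou5f1, Sox2, Zfp42 and Dppa5a did not pass there. In the GSK3α line 1 of the 10 passed, where 0.881% of all tested genes did. That marker was Fgf4, which rose, with 250 and 255 against 232 and 228 untreated (log2 0.14, adjusted p = 0.0497 in limma). Some markers of other cell types moved in the GSK3β line as well. The summed value of the 5 neural markers with values was 219.8 to 228 with 3MB-PP1 and 158 to 168 untreated in the GSK3β line, and 163 to 165 with 3MB-PP1 and 148 to 154 untreated in the GSK3α line. Tubb3 and Nes, which passed upward in the GSK3β line, made up most of that sum, while Sox1 (log2 -0.28, adjusted p = 0.0806) and Pax6 (0.0046) had 2.89 to 5.85 in all libraries and did not pass. Neurod1, the remaining neural marker, fell by 0.46 on the log2 scale in the GSK3β line (adjusted p = 0.00352). The trophoblast sum was 11.2 to 13.3 with 3MB-PP1, against 8.76 to 9.71 untreated in the GSK3β line. None of its 4 tested genes passed. Cdx2, too low to be tested, made most of that difference, with 2.43 and 3.27 with 3MB-PP1, against 0.195 and 0.321 untreated. The fibroblast sum was 15.2 to 15.4 with 3MB-PP1, against 14.03 to 16.1 untreated, and the primitive endoderm sum 9.99 to 10.3, against 9.46 to 10.2. The part of these markers in the results was not tested.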

How the data were processed

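RNA from 8 libraries was measured by Illumina sequencing after TruSeq preparation of total RNA, per the labels' protocols. Reads were processed with TopHat2 and Partek on mm10, per the submitters' processing notes; versions, gene annotation, strand setting and scaling are not given in the sources used here. The authors deposited a signal per gene, an estimated count on a scale that makes the upper quartiles of the libraries equal to within 0.0548%. Taking a library's smallest value as the worth of 1 read, whole numbers of reads (tolerance 0.1) came out for 63.5 to 67.6% of low values, those worth at most 20 reads, and no count test was used. On that reading each library holds 21.5 to 32.4 M reads assigned to genes. In the GSK3α line these were 26 and 26.4 M with 3MB-PP1, against 21.5 and 22.7 M untreated. In the GSK3β line they were 31.2 and 32.4 M with 3MB-PP1, against 23.8 and 28.9 M untreated. Depth thus went with treatment in both lines, and its part in the results was not tested. Of 48321 genes listed, 17488 had values, all of them in every library.

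The 13959 genes whose mean reached 1 or more were tested by limma-trend (limma 3.58.1, R 4.3.3) on log2(value + 1), with 1 mean per group, a shared spread from 4 residual degrees of freedom, Benjamini-Hochberg adjustment over all tested genes and a two-sided threshold of 0.05. Limma drew the spread of each gene toward a trend with level over all tested genes. The pseudocount understates changes of low genes. The script was tested on simulated data. Exon lengths and overlaps came from GENCODE M21 and promoters from RefSeq, both on GRCm38, the assembly of mm10. The text names all 10 members, up to 4 genes of each list past the threshold in either line, and the 3 closest patterns of each responding member. A gene of these lists that the rule would name is not reported here. Glt8d2, Tdg-ps, Dnmt3aos and Gm42567 were named for their position or sequence, and marker genes after their values were seen. The members and lists were chosen with earlier results of these data known. Alternatives were other pseudocounts, filters and scalings, limma-voom, a replicate block, fits within a line and leaving out each library.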

Additional observations from a re-analysis of the deposited data

Results flagged for a closer look

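Listed here are the 5 of the 10 genes that responded to 3MB-PP1 differently in the 2 lines by the test of the difference itself. That test was passed by 6.53% of all tested genes. On the log2 scale the response in the GSK3β line minus that in the GSK3α line was -0.41 for Dnmt3a, -0.34 for Dnmt3l, -0.17 for Dnmt3b, 0.36 for Tet2 and 0.52 for Prdm14, with adjusted p-values from limma between 4.69e-06 and 0.0150. The call for Dnmt3b ended when certain single libraries were left out, as given above. Each line is the only one of its paralog, so line and paralog cannot be told apart. Groups of 2 libraries are too small for a check of outlying samples.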

How the results depend on the processing

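Across the alternatives 15 of the 20 calls of single members held every time. The others were Tet1 in the GSK3β line, Tet2 in the GSK3α line, Tet1 and Dnmt3b between the untreated lines, and Dnmt3b in the difference of responses, with the values given above. No called value changed sign. Leaving out each library in turn, the number of members called ran from 5 to 6 in the GSK3β line, 0 to 1 in the GSK3α line, 4 to 5 for the difference and 7 to 8 for the untreated lines. The counts over all genes moved more, from 864 to 2277 (2084 with all libraries), 16 to 186 (123), 353 to 1339 (911) and 5669 to 6554 (6723) in the same order. With replicate number as a replicate block 6, 1, 5 and 8 members were called, as without it. The deviations of libraries with the same number correlated between groups at -0.0447 to 0.0271, so no effect shared by equal numbers was visible. That cannot show whether such libraries were prepared together. Changes of sign were confined to values that did not pass in the fit of all libraries. Without 1 library the log2 values ran as follows. In the GSK3α line they were -0.0024 to 0.024 for Dnmt1, -0.053 to 0.148 for Tet3, -0.066 to 0.038 for Uhrf1, -0.031 to 0.036 for Prdm14 and -0.021 to 0.0091 for Tdg. Uhrf1 ran from -0.031 to 0.0085 in the GSK3β line and from -0.091 to 0.013 between the untreated lines. The difference of responses ran from -0.0076 to 0.073 for Dnmt1, -0.105 to 0.096 for Tet3 and -0.049 to 0.055 for Uhrf1. Equal totals gave 0.00024 for Tdg in the GSK3α line, -0.014 for the difference of Uhrf1 and 0.012 for Uhrf1 between the lines. Median-of-ratios scaling gave -0.0053 for Prdm14 in the GSK3α line and 0.013 for the difference of Tet3, which was 8.7e-06 with a pseudocount of 4. The causes were not tested. A lone library of a group is assumed to vary like the others.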
